A study of Arabidopsis thaliana with 12 samples.

Results

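The comparison described here set mature leaves that had been induced to make a fragment of CPR5 against wild-type leaves given the same inducer. It used 6 of the 12 ATH1 microarrays of the study, 3 of CPR5-C plants treated with dexamethasone and 3 of WT plants treated with dexamethasone, chosen by their labels and compared probe set by probe set. Both groups were Arabidopsis thaliana of the Col-0 background, grown on soil at 22 °C in 12 h of light and 12 h of dark for 4 weeks, and leaves were collected 24 h after a spray of 50 µM dexamethasone. The CPR5-C plants carried Dex:YFP-CPR5-C, in which the fluorescent protein YFP is joined to the C-terminal part of CPR5 behind a dexamethasone-inducible promoter, and the WT plants carried no transgene. The other 6 arrays, 3 of each genotype sprayed with water, entered the fit only to estimate the spread and to give values beside the comparison. How many independent transgenic lines or leaves stood behind each array is not given in the sources used here, so p-values measure the spread between samples that the labels call biological replicates.

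CPR5 spans the membrane at the nuclear pore, the channel through which proteins and RNA pass between nucleus and cytoplasm. Plants that lack it are known for spontaneous lesions, raised immunity, altered trichomes and early senescence, the programmed dismantling of a leaf in which chloroplasts are broken down and nutrients are exported. According to the study's design, the C-terminal part interferes with the native protein. Dexamethasone is a synthetic glucocorticoid with no plant counterpart, and both groups received it, so the spray itself did not differ between them. Whether the genotypes responded alike to the spray, apart from the fragment, was not tested. No probe set was named CPR5, so the induction of the fragment was not checked.

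Of 22746 probe sets, 5308 were higher (23.3%) and 5478 lower (24.1%) in CPR5-C than in wild-type leaves (limma, Benjamini-Hochberg adjusted p under 0.05), so that 47.4% differed. A log2 size of 1 or more was reached by 1193 of the higher (5.24%) and 1163 of the lower (5.11%), and for 54.1% of all probe sets the arrays of the groups did not overlap. The counts of gene lists below are to be read against 21.2% higher and 21.9% lower among the 13513 probe sets with a single gene, whose median difference was 0.01. The deposited log2 signals had been centred on each probe set's median across the 12 arrays, so they show differences and no absolute level. SE is the fitted standard error with n = 3 arrays per group, from a spread shared by all groups. For genes whose CPR5-C arrays spread widely, such as BCAT4 (SD 1.45 against 0.05 in wild type), SE and p-values can overstate the precision. Unequal spread between the groups was not modelled. Taken over the whole array, the SD of the values ranged from 0.68 to 0.69 in the CPR5-C group and from 0.14 to 0.16 in the wild-type group. The mean of 24 poly-A spike probe sets lay between -0.59 and -0.09 on the CPR5-C arrays. It lay between 0.06 and 0.27 on the wild-type arrays. These probe sets report RNA meant to be added in equal amount, and whether it was so added was not tested. Scaling to these spikes added 0.52 to every difference and gave 16888 higher (74.2%) and 1535 lower (6.75%) calls. Quantile normalization, which gives arrays of unlike spread the same distribution, gave 2313 higher and 2797 lower. Because it equalizes the spread, it can itself shrink differences of the widely spread CPR5-C arrays. A call lost with it therefore does not by itself show that a difference is absent. Among cell type markers the mesophyll gene RCA was at -0.05 (adjusted p = 0.529), the guard cell lineage genes FMA, MUTE and SPCH at -0.15, -0.03 and 0.12 (adjusted p = 0.172, 0.835 and 0.33), and the phloem transporter SWEET11 was higher by 0.33. Scaled to the spikes all 5 of these were called higher, and FMA was called lower (-0.23) without CPR5-C replicate 3. No xylem, root or trichome and epidermis marker of the lists was measured by a named probe set.

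The largest rise of any named gene was that of BGLU45, a beta-glucosidase known to act on the glucosides of lignin precursors. Its signal was 8.60, 8.61 and 8.47 on the CPR5-C arrays and -0.10, 0.00 and -0.07 on the wild-type arrays, a 393-fold difference (log2 8.62, SE 0.08, adjusted p = 1.37e-17). The 3 CPR5-C arrays lay close together and far above all 9 others. SAG29, a sugar transporter that accumulates in senescing leaves, was at 6.51, 6.20 and 6.37 against -0.19, -0.21 and 0.29 (84.4-fold, SE 0.14). XTH19, which cuts and rejoins xyloglucan of the cell wall, was at 6.10, 5.92 and 5.77 against -0.33, 0.18 and 0.85 (51.8-fold, SE 0.21). The wild-type arrays of XTH19 spread over more than 1 unit, and in both genes they stayed far below the CPR5-C arrays. Other large rises were those of MYBC1, a MYB-related factor known to lower freezing tolerance (5.11, SE 0.09), LCR69, a defensin-like peptide (4.3, SE 0.12), UPB1, a bHLH factor known from root peroxidase control (2.77, SE 0.14), and CLE44, a precursor of the peptide that keeps vascular stem cells undifferentiated (2.42, SE 0.09). Of loci without a symbol, AT4G23680 (6.79), AT1G64405 (6.39), AT2G36220 (6.25), AT5G10120 (6.19) and AT5G39520 (5.59) rose most.

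The largest falls of genes with a symbol were those of STOMAGEN, a secreted peptide that promotes stomatal formation, and BCAT4, which starts the chain elongation of methionine-derived glucosinolates. STOMAGEN was at -3.00, -3.79 and -4.51 on the CPR5-C arrays and at 0.22, 0.01 and 0.11 on the wild-type arrays (14.7-fold lower, log2 -3.88, SE 0.25). BCAT4 was at -3.17, -2.50 and -5.28 against 0.14, 0.12 and 0.22 (-3.81, SE 0.46). The groups stood apart for both genes, while the CPR5-C arrays of BCAT4 spread over more than 2 units, with replicate 3 the lowest. BHLH101, a factor of the iron deficiency response, was lower by 3.34 (SE 0.15), and TRY, an inhibitor of trichome formation, was at -2.25, -2.03 and -2.51 against 0.17, 0.11 and 0.31 (-2.46, SE 0.10). Loci without a symbol with the largest falls were AT1G13650 (-4.97, SE 0.35), AT5G48490 (-4.79, SE 0.35), AT1G60590 (-4.06, SE 0.33), AT5G03350 (-3.93, SE 0.42) and AT1G23390 (-3.56, SE 0.12). The annotation gave no gene for 10 of the 20 probe sets that rose most and for 13 of the 20 that fell most, with extremes of 8.84 and -4.82.

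**Figure D1:**
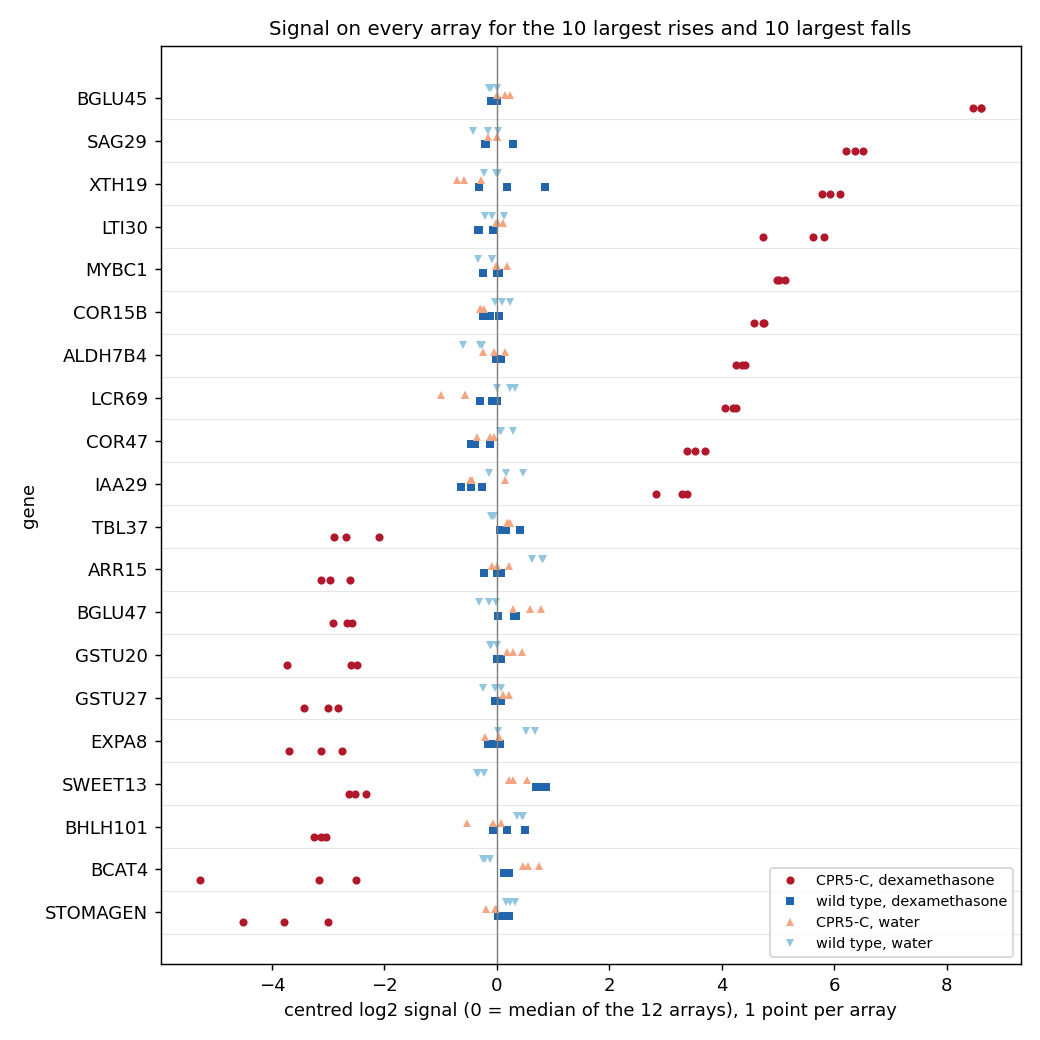
Centred log2 signal on each of the 12 arrays (horizontal axis, 0 is the median of the 12 arrays) for the 10 genes with a symbol that rose most and the 10 that fell most, with a symbol for each group. For all 20 genes the 3 CPR5-C dexamethasone arrays stand apart from the other 9, and BCAT4 and STOMAGEN show the widest spread among the CPR5-C arrays.

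Genes of cold and dehydration, most of which are known to be induced by abscisic acid, were mostly higher. Of 12 measured members 9 were higher and 1 lower (median 1.0), and 8 were higher with quantile normalization and 11 with spike scaling. The dehydrin LTI30, a protein that shields membranes when water is short, was at 5.81, 5.62 and 4.73 in CPR5-C leaves against -0.08, -0.31 and -0.34 (49.5-fold, SE 0.20). COR15B and COR15A, which protect chloroplast membranes during freezing, were higher by 4.80 (SE 0.09) and 3.62 (SE 0.15). COR15A was at 3.81, 3.76 and 3.44 against -0.22, -0.05 and 0.41, so its groups lay about 3 units apart, and with quantile normalization the difference was 1.28 (adjusted p = 0.00721). Whether the probes separate these similar neighbouring genes was not tested. The dehydrin COR47 (3.86, SE 0.11), the late embryogenesis protein LEA4-5 (3.25, SE 0.22), RD2 (1.28, SE 0.11) and LEA18 (0.72, SE 0.16) were also higher. COR27, a cold-induced regulator of the clock, was at -0.06 (adjusted p = 0.582) and the dehydrin LEA at 0.09 (adjusted p = 0.404). HVA22C was lower by 0.78 (SE 0.09), a call not made with quantile normalization (-0.41, adjusted p = 0.0597). EEL, a bZIP factor of the family that reads abscisic acid responsive promoters, was 6.8-fold higher (2.77, SE 0.06), while no gene of abscisic acid synthesis or perception in the lists was measured by a named probe set.

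Senescence genes were higher in all 4 measured cases, with a median of 0.84. Beside SAG29 these were WRKY53 (0.94, SE 0.14) and WRKY6 (0.71, SE 0.10), transcription factors that promote leaf senescence, and SAG101 (0.74, SE 0.11), a partner of the immune regulator EDS1. SAG101 was not called with quantile normalization (0.36, adjusted p = 0.192). WRKY53 was at -0.12, -0.30 and -0.22 in CPR5-C leaves and at -1.30, -1.14 and -1.01 in wild-type leaves after dexamethasone. Both groups lay below the water groups, whose means were 0.28 for CPR5-C and 0.72 for wild type. SAG12, SAG13 and the chlorophyll breakdown genes of the list were not measured by a named probe set.

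ATG8 proteins are small ubiquitin-like proteins that coat the growing membrane of autophagy, by which a cell delivers its own contents to the vacuole. Among 9 measured ATG8 genes, grouped after their values were seen, 6 were higher and 1 lower (median 0.52). With quantile normalization 2 were higher and 1 lower. The autophagy list fixed beforehand also held ATG3 (0.14, adjusted p = 0.175) and AT5G66930 (0.07, adjusted p = 0.673), neither called. APG8A was at 1.5, 1.21 and 1.2 in CPR5-C leaves against 0.00, 0.09 and 0.00 (2.42-fold, SE 0.10), and ATG8D (1.17, SE 0.08) and ATG8H (1.02, SE 0.13) followed. ATG8E went the other way. It was at -2.10, -1.96 and -2.16 against 0.00, 0.00 and -0.29, so the groups were well separated and the gene was 3.93-fold lower (SE 0.12). ATG8D was not called with quantile normalization (0.31, adjusted p = 0.113).

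Of 17 measured genes of amino acid and nitrogen recycling 12 were higher and 3 lower (median 0.59), against 5 and 2 with quantile normalization. ALDH7B4, an aldehyde dehydrogenase induced by osmotic stress, was at 4.41, 4.36 and 4.25 in CPR5-C leaves against 0.01, -0.01 and 0.06 (19.9-fold, SE 0.10). AT4G33150, which the gene table lists as the bifunctional enzyme that starts lysine breakdown, was at 2.22, 1.36 and 1.26 against -0.24, -0.12 and -0.11 (3.42-fold, SE 0.17). The groups did not overlap in either gene. Breakdown of branched-chain and sulfur amino acids was represented by MGL, methionine gamma-lyase (1.18, SE 0.17), IVD, isovaleryl-CoA dehydrogenase (1.09, SE 0.10), ALDH6B2 (0.99, SE 0.08) and MCCA, a subunit of methylcrotonyl-CoA carboxylase (0.66, SE 0.10). MGL (0.71, adjusted p = 0.0994) and MCCA (0.39, adjusted p = 0.0629) were not called with quantile normalization. DELTA-OAT, ornithine aminotransferase, which was not in the list and was named after its values were seen, was 4.75-fold higher (2.25, SE 0.08). ALN, allantoinase of purine breakdown, was instead at -2.09, -1.91 and -1.90 against 0.05, -0.03 and -0.03 (-1.97, SE 0.09).

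The endoplasmic reticulum, where secreted proteins fold, had 12 of 20 measured probe sets higher and 1 lower (median 0.38), and 7 and 0 with quantile normalization. The membrane-tethered bZIP factors that are released on folding stress were higher, BZIP17 by 1.12 (SE 0.07) and BZIP28 by 0.70 (SE 0.07), as was BZIP60, which is activated by splicing of its messenger (0.68, SE 0.08). BZIP17 was at 0.99, 1.16 and 1.10 against -0.06, -0.08 and 0.00, with no overlap. The chaperones ATERDJ2A (0.95, SE 0.06) and CRT1b, a calreticulin (0.58, SE 0.07), were higher, whereas ATERDJ2B was lower by 0.67 (SE 0.11) and not called with quantile normalization (-0.33, adjusted p = 0.195). The DER1 gene had 2 probe sets, at 0.54 (called) and 0.07 (not called).

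Because CPR5 sits in the nuclear pore, genes of the pore and of nuclear transport were listed, but only 4 were measured under names in the gene table. The export receptor XPO1B was at 0.99, 1.06 and 1.17 against 0.04, -0.08 and -0.11 and rose by 1.12 (SE 0.07). SEH1H, a scaffold nucleoporin, was higher by 0.29 (SE 0.09) and lost its call without CPR5-C replicate 2 (0.26, adjusted p = 0.063) or wild-type replicate 3 (0.24, adjusted p = 0.0752). NUP1 was at 0.04 (adjusted p = 0.799) and NUP155 at -0.16 (adjusted p = 0.212), which was called lower without wild-type replicate 3 (-0.28, adjusted p = 0.0146).

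Immunity was represented by few named probe sets, and PR1, PR2, PR5, ICS1, PAD4 and EDS1 were not measured by any. Of 5 genes of salicylic acid synthesis, modification and response 1 was higher, SAG101, and 0 lower. UGT76B1, which glucosylates immune signals, was at 0.24, 1.72 and -0.10 in CPR5-C leaves against 0.00, 0.20 and -0.01. CPR5-C replicate 2 was the only high array, and the difference of 0.56 did not pass (adjusted p = 0.166), although it did without CPR5-C replicate 3 (0.92, adjusted p = 0.0162). Without CPR5-C replicate 2 it was 0.01. BSMT1, which methylates salicylic acid, was at 0.20 (adjusted p = 0.21) and called without wild-type replicate 3 (0.32, adjusted p = 0.0381). The glutaredoxin GRX480, a salicylic acid responsive gene, was at -0.26 (adjusted p = 0.164) and called lower without wild-type replicate 1 (-0.39, adjusted p = 0.0414). BIK1, a kinase that relays signals from surface receptors of pattern-triggered immunity, was at 1.65, 1.49 and 1.86 against -0.17, 0.01 and 0.03, a 3.27-fold rise (SE 0.10). The receptor EFR was at 0.01 (adjusted p = 0.926) and WRKY22 at -0.31 (adjusted p = 0.087), the latter called without CPR5-C replicate 2 (-0.40, adjusted p = 0.0495). Of the 6 WRKY factors measured 3 were higher and 2 lower. Beside WRKY53 and WRKY6 these were WRKY42 (0.28, SE 0.09, not called without CPR5-C replicate 2 at 0.20 or without wild-type replicate 1 at 0.19), WRKY47 (-0.54, SE 0.09) and WRKY20 (-0.24, SE 0.08). The WRKY20 call did not hold without CPR5-C replicate 1 (-0.21) or 2 (-0.18) or wild-type replicate 1 (-0.24) or 2 (-0.23), and with spike scaling the value was 0.28. The U-box ubiquitin ligase PUB19 (1.66, SE 0.10) and RING1, which acts in programmed cell death (0.80, SE 0.08), were higher, while PUB24, a negative regulator of surface immunity, was lower by 1.06 (SE 0.10). In all 3 of 13 measured ubiquitin ligases were higher and 4 lower.

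In the jasmonate list, the pathway of wounding and necrotroph defence, 6 of 9 measured genes were lower and 0 higher, with a median of -0.36 as deposited, -0.53 with 2 calls under quantile normalization, and 0.16 with 3 lower and 3 higher under spike scaling. JMT, which makes methyl jasmonate, was at -2.25, -2.53 and -2.27 in CPR5-C leaves against 0.48, 0.21 and 0.44 (6.62-fold lower, SE 0.09). The thionin THI2.2, an antimicrobial peptide, was at -2.20, -2.55 and -2.64 against -0.19, -0.34 and -0.18 (-2.23, SE 0.12), and MYC4, a transcription factor of jasmonate responses, at -0.33, -0.25 and -0.35 against 0.81, 0.83 and 0.74 (-1.11, SE 0.07). All 3 genes were lower on every CPR5-C array than on any wild-type array with dexamethasone. THI2.2 was not called with quantile normalization (-0.53, adjusted p = 0.215). The defensin PDF1.2 was at 0.06, -0.46 and 2.93 against 0.92, 0.57 and 0.37, so that 1 of the 3 CPR5-C arrays was far above and the other two below the wild-type arrays. Its difference of 0.22 did not pass (adjusted p = 0.802), and without CPR5-C replicate 3 it turned to -0.82 (adjusted p = 0.00204). Its relative PDF1.2b followed the same arrays, at 0.13, -0.23 and 2.01 against 0.53, 0.26 and 0.02 (0.36, adjusted p = 0.512).

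**Figure D2:**
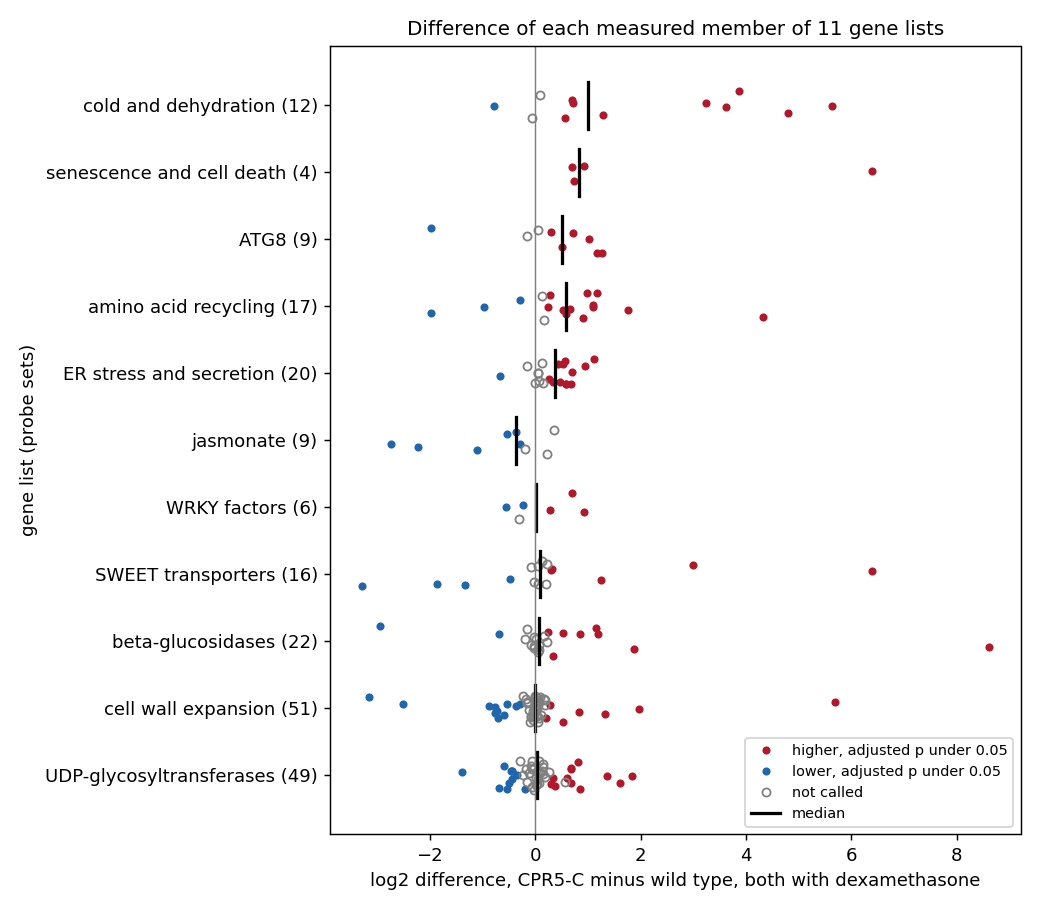
Log2 difference between CPR5-C and wild type, both with dexamethasone (horizontal axis), for each measured probe set of 11 gene lists (rows, number of probe sets in parentheses), with filled points for probe sets at adjusted p under 0.05, open points for the rest and a bar at the median. Points of the cold and dehydration, senescence, ATG8, amino acid and endoplasmic reticulum lists lie mostly right of 0, the called jasmonate genes lie left of it, and the SWEET, cell wall and glycosyltransferase lists spread to both sides.

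Hormone genes of growth moved in both directions. Of 19 measured auxin genes 3 were higher and 2 lower (median -0.0028), shares below the background. The repressor IAA29 was at 2.83, 3.30 and 3.38 in CPR5-C leaves against -0.46, -0.28 and -0.64 (12.3-fold, SE 0.19), and WES1, an enzyme that couples auxin and salicylic acid to amino acids, was at 1.67, 2.2 and 1.95 against -0.22, -0.02 and -0.38 (4.42-fold, SE 0.12). These 2 genes lay far above the rest of the auxin list. ARR15, a response regulator induced by cytokinin, was 7.21-fold lower (-2.85, SE 0.12). The gibberellin receptors split, with GID1B (0.96, SE 0.13) and GID1A (0.49, SE 0.10) higher and GID1C lower by 0.44 on the deposited scale, but at 0.08 (adjusted p = 0.66) with spike scaling, where GID1B and GID1A were higher by 1.48 and 1.01. GID1B and GID1A were not called with quantile normalization (0.45 and 0.24). GI, a clock protein and the single measured gene of its list, was at 2.15, 2.23 and 2.56 against -0.01, 0.03 and 0.02 (4.92-fold, SE 0.10).

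Sugar transport showed some of the largest opposed differences. SWEET proteins let sugars leave cells or the vacuole. Of 16 measured members, grouped after their values were seen and including SAG29 (also named SWEET15), 5 were higher and 4 lower. With quantile normalization the counts were 2 and 3. SWEET4 was at 3.27, 2.95 and 2.51 in CPR5-C leaves against -0.19, -0.06 and -0.03 (8.02-fold, SE 0.14), and SWEET1 was higher by 1.24 (SE 0.11). SWEET13, which passes sucrose to the phloem, was at -2.63, -2.33 and -2.52 against 0.70, 0.82 and 0.87 (9.78-fold lower, SE 0.09). SWEET17, a fructose channel of the vacuole (-1.87, SE 0.12), and SWEET2 (-1.33, SE 0.07) were also lower, and SWEET11, a partner of SWEET12 in phloem loading, was higher by 0.33 (SE 0.06). SWEET1 (0.38, adjusted p = 0.107) and SWEET11 (0.10, adjusted p = 0.591) were not called with quantile normalization. The vacuolar sugar importer TMT1 was at 2.95, 3.05 and 3.20 against -0.08, 0.14 and -0.12 (8.49-fold, SE 0.10). The related TMT2 was lower by 0.21 (SE 0.08), and TMT3 at 0.20 did not pass (adjusted p = 0.187). After water TMT2 was higher by 0.29, and its difference after dexamethasone was 0.31 with spike scaling (adjusted p = 0.0616). Among 6 starch and central carbon genes 4 were higher and 0 lower, led by DPE1, which recycles short glucans of starch breakdown (1.91, SE 0.17), and the amylase AMY1 (0.80, SE 0.10). Beta-glucosidases, with 8 of 22 higher and 2 lower (5 and 2 with quantile normalization), included BGLU44 (1.87, SE 0.08), BGLU42 (1.19, SE 0.07) and BGLU46, the near relative of BGLU45 (1.15, SE 0.16). BGLU47, the relative of both, was 7.67-fold lower, at -2.67, -2.58 and -2.92 against 0.30, 0.33 and 0.02.

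Cell wall genes had no common direction. Of 51 measured genes of wall expansion 7 were higher and 11 lower (median -0.01), shares near or below the background. With quantile normalization the counts were 3 and 1. The expansin EXPA8, which loosens walls in growing tissue, was at -2.75, -3.14 and -3.69 in CPR5-C leaves against -0.02, -0.17 and 0.06 (8.9-fold lower, SE 0.20). EXPB1 was lower by 2.51 (SE 0.22), a call not made with quantile normalization (-1.06, adjusted p = 0.156). EXPA16 (1.97, SE 0.13) and EXPA9 (1.33, SE 0.12) were higher, as was XTH19, so that members of the same families stood at opposite ends. Of 12 genes of cellulose, hemicellulose and lignin synthesis 4 were higher and 4 lower. The mannan synthase gene CSLA03 was lower by 2.60 (SE 0.11), and CCR2, a cinnamoyl-CoA reductase of lignin synthesis, was higher by 1.07 (SE 0.14). EXO, a promoter of cell expansion, was lower by 0.77 (SE 0.15), but was at 0.26 (adjusted p = 0.729) with quantile normalization. EXLA1 was at 0.17 (adjusted p = 0.504) and was called higher without wild-type replicate 2 (0.45, adjusted p = 0.00516).

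Redox and detoxification genes split within families as well, with 7 of 22 higher and 5 lower. Glutathione transferases of the tau class ranged from GSTU27 (-3.11, SE 0.12) and GSTU20 (-2.98, SE 0.23) through GSTU18 (-1.32, SE 0.07) to GSTU16 (1.06, SE 0.08). GSTU20 was at -2.60, -2.49 and -3.74 against 0.07, 0.05 and -0.01, with no overlap. ATMDAR2, which regenerates ascorbate (2.35, SE 0.10), and GR1, glutathione reductase (0.72, SE 0.06), were higher. Redox regulators of the chloroplast were lower, NTRC, a thioredoxin reductase with its own thioredoxin domain, by 1.18 (SE 0.07) and TRXF2 by 0.93 (SE 0.07), as were the methionine sulfoxide reductases MSRB5 (-2.29, SE 0.12) and MSRB6 (-2.21, SE 0.15), which repair oxidized methionine. STZ, a zinc finger repressor of stress responses, was at -0.09, -0.04 and -0.21 in CPR5-C leaves against -1.15, -0.52 and -0.42. The groups did not overlap, with wild-type replicate 1 the lowest, and the call (0.58, adjusted p = 0.0285) did not hold without that array (0.36, adjusted p = 0.153) or without CPR5-C replicate 1 (0.57, adjusted p = 0.0693) or 2 (0.54, adjusted p = 0.0809).

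In glucosinolate metabolism 3 of 5 measured genes were lower and 1 higher. Beside BCAT4 the lower ones were UGT74B1, which adds the glucose of glucosinolates (-1.38, SE 0.09), and the transporter GTR1 (-0.79, SE 0.06). The transporter GTR2 was higher by 0.22 (SE 0.07), a call lost without wild-type replicate 2 (0.20, adjusted p = 0.0571). UGT74B1 was at -1.07, -1.09 and -1.12 against 0.41, 0.29 and 0.16, so all CPR5-C arrays lay below all wild-type arrays. UDP-glycosyltransferases, which attach sugars to hormones and phenolics, had 12 of 49 members higher and 11 lower, close to the background shares. The highest were UGT84A3, which makes phenylpropanoid glucose esters (1.83, SE 0.10), and UGT73C1 (1.62, SE 0.21). Of 24 cytochrome P450 genes 2 were higher and 5 lower, from CYP71B36 (-2.55, SE 0.08) to CYP71B26 (2.09, SE 0.09), both of the CYP71B group.

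Photosynthesis genes were lower as a group on the deposited scale. The light reactions had 33 of 40 measured genes lower and 1 higher, with a median of -0.43, which was -0.29 with 12 lower and 0 higher under quantile normalization and turned to 0.09 with 10 lower and 4 higher under spike scaling. Among the 19 that are encoded in the nucleus, 18 were lower and 1 higher, with a median of -0.60. The lower ones were led by genes of the chloroplast NDH complex, which returns electrons to the plastoquinone pool around photosystem I. All 8 measured nuclear genes of this complex and its assembly or RNA editing, grouped after their values were seen, were lower, with a median of -1.04, and 5 of the 8 were lower with spike scaling (median -0.52). The subunit genes NdhN and NdhL were at -2.10, -2.41 and -2.29 against 0.10, 0.00 and 0.00 (4.91-fold lower, SE 0.08) and at -2.10, -1.98 and -2.26 against 0.02, -0.03 and 0.13 (4.45-fold lower, SE 0.08). The editing factor CRR21 was lower by 1.62 (SE 0.10) and CRR42 by 1.07 (SE 0.08). Antenna and photosystem genes showed smaller differences with little spread, as for LHCB4.2 (-0.66, SE 0.06), PSBY (-0.60, SE 0.06) and PSAN (-0.59, SE 0.06), whereas the antenna gene LHCB4.3 was lower by 1.57 (SE 0.13). PGRL1B, of cyclic electron flow, was the single gene of the list that was higher (0.39, SE 0.07), and it was not called with quantile normalization (0.23, adjusted p = 0.173). In bulk leaf tissue fewer cells of a type and less RNA per cell cannot be told apart. The part of the lower spike signals of the CPR5-C arrays in these differences was not tested.

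In carbon fixation SBPASE (-0.68, SE 0.06), PRK (-0.40, SE 0.06) and the photorespiratory gene HPR (-0.40, SE 0.06) were lower, 3 of 4 measured genes, and PRK and HPR turned to 0.13 and 0.12 with spike scaling. In chlorophyll synthesis 6 of 11 measured genes were lower and 1 higher, with a median of -0.28 as deposited, -0.14 with quantile normalization and 0.24 with spike scaling. CHLM, a magnesium protoporphyrin methyltransferase, was at -1.46, -1.58 and -1.50 against 0.06, 0.01 and 0.02 (2.91-fold lower, SE 0.06). CHLI2, a subunit of magnesium chelatase, was lower by 1.24 (SE 0.07). PORB, which reduces protochlorophyllide in the light, went the other way, at 1.02, 1.15 and 1.33 against -0.81, -0.66 and -0.69 (3.7-fold higher, SE 0.11). Its 2 dexamethasone groups lay on opposite sides of the water groups, whose means were -0.33 for CPR5-C and 0.41 for wild type.

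Signals of plastid-encoded transcripts were lower as well. Whether the RNA labelling captured them in proportion to their amount was not tested. Of 69 plastid-encoded genes 51 were lower and 0 higher, with a median of -0.54 (range -1.68 to 0.13). The median was -0.27 with 8 lower under quantile normalization and -0.02 with 13 lower and 11 higher under spike scaling. Genes of the plastid ribosome had the lowest median of the larger groups, -0.70, with 14 of 15 lower. The largest difference was that of rps16, at -1.56, -1.49 and -1.64 in CPR5-C leaves against 0.21, 0.25 and -0.11 (3.21-fold lower, SE 0.15), with rpl33 (-1.43, SE 0.07) and rps18 (-1.41, SE 0.11) next. Of 4 subunits of the plastid-encoded RNA polymerase, rpoC2 (-1.08, SE 0.11), rpoA (-0.81, SE 0.09) and rpoC1 (-0.72, SE 0.15) were lower, whereas rpoB was at 0.13 (adjusted p = 0.185). Photosystem, cytochrome and RuBisCO genes had 20 of 29 lower with a median of -0.42, which turned to 0.10 with spike scaling, from psaJ (-1.20, SE 0.10) to psaB (0.07, adjusted p = 0.549), and rbcL, the large subunit of RuBisCO, was at -0.89, -0.59 and -0.64 against 0.05, 0.03 and -0.04. The genes of the NDH complex (7 of 10 lower, median -0.46) and of the ATP synthase (3 of 6, median -0.39) had no member higher, while their medians turned to 0.06 and 0.13 with spike scaling. With quantile normalization rpoC2 (-0.47), rpoC1 (-0.14) and rbcL (-0.34) were among those not called.

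**Figure D3:**
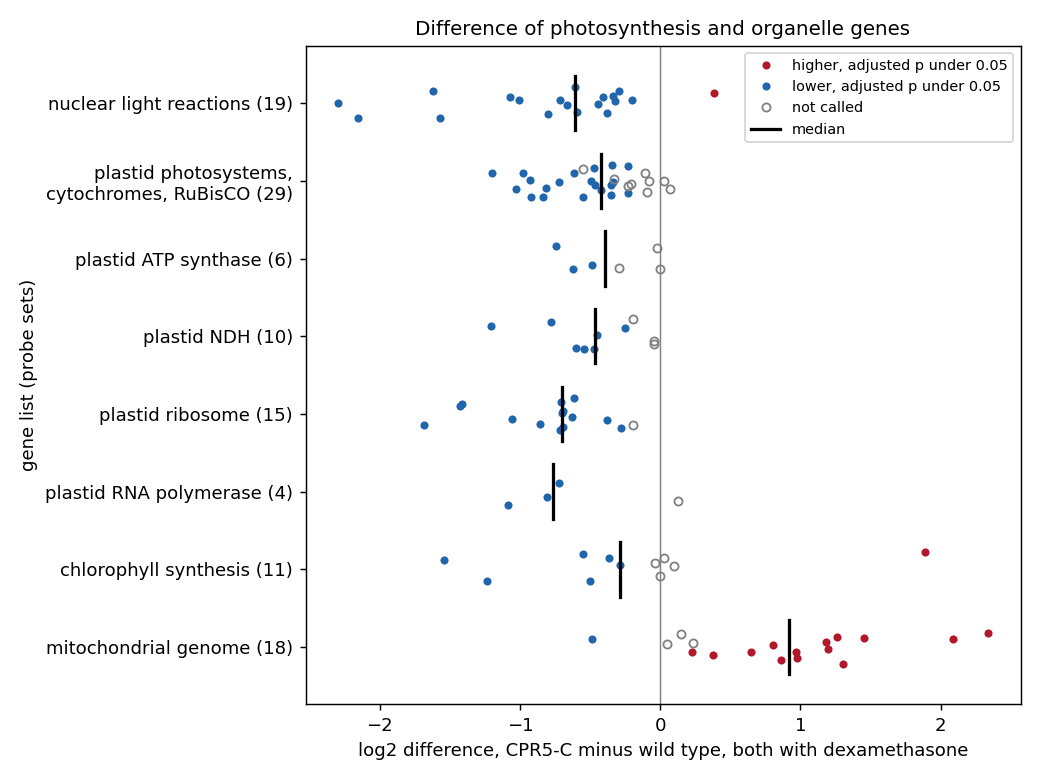
Log2 difference between CPR5-C and wild type, both with dexamethasone (horizontal axis), for each measured probe set of photosynthesis and organelle gene lists (rows, number of probe sets in parentheses), with filled points at adjusted p under 0.05, open points for the rest and a bar at the median. Nuclear and plastid photosynthesis genes and the plastid ribosome and polymerase lie mostly left of 0, with PGRL1B (0.39) and rpoB (0.13) to its right, PORB is the point near 1.89 in chlorophyll synthesis, and most mitochondrial probe sets lie right of 0.

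Genes of the mitochondrial genome went in the opposite direction. Those that the gene table places there were measured by 18 probe sets for 11 genes. Of these probe sets 14 were higher and 1 lower (median 0.92), against 10 higher and a median of 0.53 with quantile normalization. The mitochondrial genes ccb452 (1.67), ccb206 (0.65) and ccb203 (0.45), grouped after their values were seen, were higher. Their relative ccb382 (0.18, adjusted p = 0.117) was not called. No chromosome was given for these ccb genes, so the counts leave them out. Because nad1, a subunit of respiratory complex I, had 7 probe sets, it weighed more than other genes. Its probe sets ranged from 0.23 to 2.34, the highest at 2.56, 2.15 and 1.97 against -0.01, -0.28 and -0.04. The 2 lowest, both at 0.23, were the 1 that did not pass (adjusted p = 0.172) and the 1 whose call was lost without any of 5 of the 6 arrays. The cytochrome oxidase genes cox2 and cox1 were higher by 1.46 (SE 0.12) and 0.65 (SE 0.09), and cox2 was at 1.58, 1.45 and 1.06 against -0.20, 0.01 and -0.09. The complex I genes nad9 (0.97, SE 0.13) and nad6 (0.86, SE 0.16) were higher, nad4 (0.15, adjusted p = 0.158) and nad7 (0.05, adjusted p = 0.775) did not pass, and nad2 was lower (-0.49, SE 0.16). The nad2 call was lost without CPR5-C replicate 2 (-0.34, adjusted p = 0.121) or wild-type replicate 1 (-0.32, adjusted p = 0.123). In the median of this list CPR5-C replicate 1 had the most weight, since it was 0.69 without that array. The nucleus also holds copies of mitochondrial DNA, and whether these probe sets tell them apart was not tested. Nor was it tested whether the labelling captured mitochondrial RNA in proportion to its amount.

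The cell cycle list had 2 of 7 higher and 4 lower, with SIM, an inhibitor of mitotic kinases, at 0.83 (SE 0.12), PRL, a subunit of the replicative helicase, at -0.62 (SE 0.12), and the histone gene HTB1 at -0.70 (SE 0.07). SIM and PRL were not called with quantile normalization (0.57 and -0.45). Heat shock genes had 2 of 7 higher and 3 lower, within the narrow range of -0.82 for Fes1C to 0.67 for Fes1A, 2 genes of the same chaperone exchange factor family, neither called with quantile normalization (-0.43 and 0.18). Of 17 probe sets for RNA interference and chromatin 3 were higher and 2 lower, and AGO7, which acts with a microRNA in the juvenile phase and shape of leaves, was the largest (-1.36, SE 0.10). Aquaporin and ion transport genes had 4 of 16 higher and 4 lower, close to the background shares. Among them were the guard cell cation exchanger CHX20 (-1.46, SE 0.07) and the glutamate receptor-like channel GLR2.8 (1.19, SE 0.08).

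The water arrays placed these differences against the resting difference between the genotypes, which passed the threshold for 1610 probe sets (7.08%). The interaction, the difference after dexamethasone minus that after water, passed for 38.5%. For BGLU45 the difference after water was 0.21 (adjusted p = 0.13), for SAG29 0.14 (adjusted p = 0.666), for LTI30 0.10 (adjusted p = 0.857), for STOMAGEN -0.32 (adjusted p = 0.539) and for NdhN 0.10 (adjusted p = 0.573), none of them called. Some genes did differ after water. PUB19 was higher in CPR5-C leaves by 0.98 after water and by 1.66 after dexamethasone, GI by 0.55 and 2.30, and UGT84A3 by 0.56 and 1.83. CSLA03 was lower by 0.87 after water and 2.60 after dexamethasone, and ATG8E by 0.66 and 1.98. GTR2 was higher by 0.41 after water and 0.22 after dexamethasone, and Fes1A by 0.59 and 0.67. For these 2 genes the interaction was not called (adjusted p = 0.155 and 0.717). EXLA1 and EXO were lower by 2.32 and 2.19 after water, when wild-type leaves stood at 2.69 and 2.81, whereas after dexamethasone all values of both genes lay below 0 in both genotypes.

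**Figure D4:**
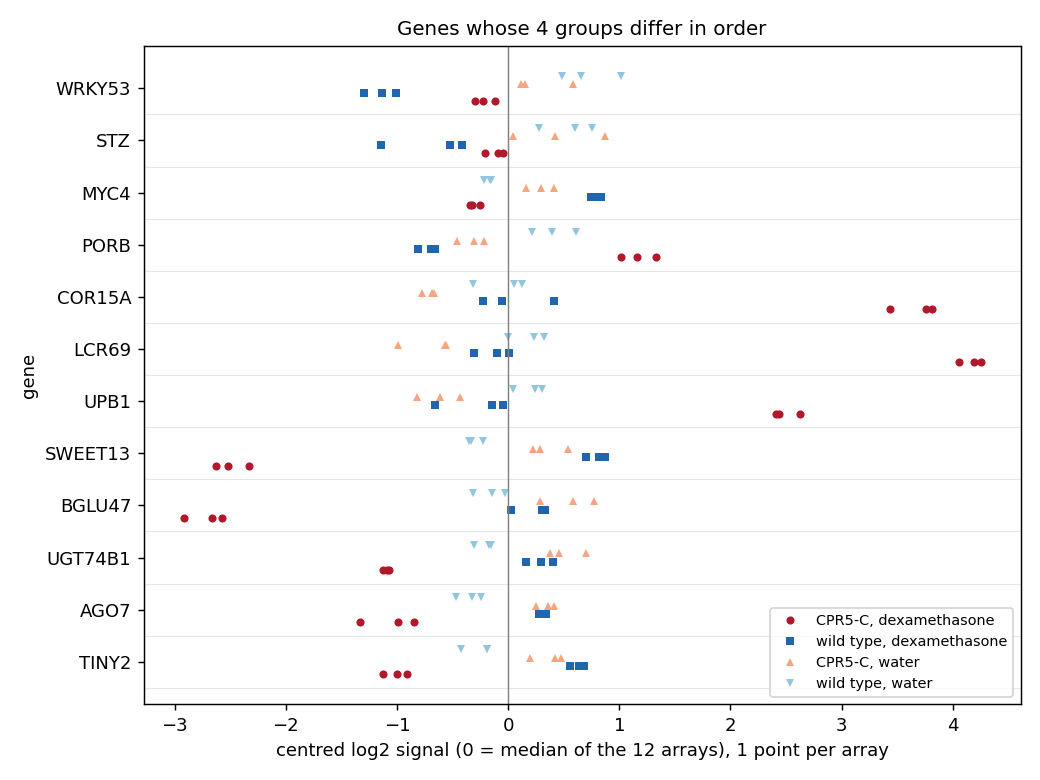
Centred log2 signal on each of the 12 arrays (horizontal axis, 0 is the median of the 12 arrays) for 12 genes, with a symbol for each group. WRKY53 and STZ are lowest on the wild-type dexamethasone arrays, MYC4, SWEET13 and TINY2 are highest there, and COR15A, LCR69 and UPB1 are above 2 on the CPR5-C dexamethasone arrays alone.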

How the data were processed

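Each array's group, replicate number, spray and age came from its labels. The authors deposited log2 signals, for which the submitters' processing notes name RMA (version not given in the sources used here). Base 2 was inferred from that method and the span of the values. The median over the 12 arrays was 0 for each probe set (within 1e-06), so the values had been centred by a step that the sources used here do not describe. Log levels, detection and brightness were therefore not analysed, and the number of arrays limits the precision.

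Of 22810 probe sets 64 were controls, and the other 22746 were tested. A platform annotation with symbols of the TAIR10.1 gene table named a single gene for 13513 probe sets, several for 503 and none for 8730. Of these single-gene probe sets 13502 matched a locus and 1580 had a symbol other than the locus, so lists hold only genes that the table names, and 13 matches were dropped because the symbol belongs to another gene. A mean per group was fitted on 12 arrays by lmFit and eBayes of limma 3.58.1 (R 4.3.3, 8 residual and 5.79 prior degrees of freedom), with two-sided p-values adjusted by Benjamini-Hochberg over all probe sets and calls at adjusted p under 0.05. The fit was checked on simulated data with the same spread in each group and few changed probe sets. That check does not cover unequal spread between groups or a share of changes as large as here.

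The comparison, the 42 gene lists and the naming rule were chosen with earlier results of these data known, and 13 families, matched on symbol or synonym, and further members were added after their values were seen. Named were the 20 largest rises and 20 largest falls with a symbol and the 10 largest with or without, among called single-gene probe sets without overlap between groups, and up to 4 members of each list by p; the text leaves out some. Alternatives were the 6 dexamethasone arrays alone, no wild-type water arrays, the replicate number as a block, quantile normalization, median centring, spike scaling, trended and robust variance, array weights, single-gene probe sets, stricter thresholds and each array left out. Same-numbered arrays of the groups did not deviate together (correlations of -0.0015, -0.024 and -0.177), so the numbers were not treated as pairs.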

Additional observations from a re-analysis of the deposited data

Results flagged for a closer look

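For 15 genes among the 258 named results, the difference between CPR5-C and wild type had opposite signs after dexamethasone and after water. In each, both differences and the interaction were called by limma. Of these genes, 5 were above 0 after dexamethasone and 10 below. The rule was applied to the 258 results only. TMT2, which was not among them, met it as well, at -0.21 after dexamethasone and 0.29 after water (interaction -0.50). The interaction, which is the difference after dexamethasone minus that after water, was 5.19 for LCR69, 5.16 for COR15B, 4.29 for COR15A, 3.59 for UPB1 and 2.62 for PORB, which were at -0.89, -0.37, -0.67, -0.82 and -0.73 after water. Transport and cell wall genes among the other 10 were SWEET13 (-3.94), BGLU47 (-3.65), TBL26 (-2.20) and the glutamate receptor-like GLR3.3 (-0.72). Transcription and small RNA genes were TINY2 (-2.27), AGO7 (-2.05) and MYC4 (-1.57). The rest were MSRB5 (-2.74), UGT74B1 (-2.10) and UGT78D1 (-1.27). After water these 10 ranged from 0.28 for GLR3.3 to 0.82 for TBL26, so the difference after water was smaller than that after dexamethasone in each of them but UGT78D1, at 0.68 against -0.58.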

How the results depend on the processing

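Calls were sensitive to the scale and little to the design. Against 5308 higher and 5478 lower probe sets, quantile normalization gave 2313 and 2797, spike scaling 16888 and 1535 (91.7% of calls higher against 49.2%), single-gene probe sets alone 2818 and 2926 because fewer were tested, and a size of at least 1 left 1193 and 1163. Leaving out each array in turn gave 4893 to 5176 higher and 5020 to 5318 lower. With the replicate number as a block the counts were 5199 and 5359 (fixed) or 5191 and 5378 (random), although the check gave no pairing by number. The counts of lost calls leave out results whose sign also turned, such as PRK with spike scaling (0.13, adjusted p = 0.45). With the fixed block 1 named result lost its call, and with the random block 3. Among all 258 named results, 67 lost their call with quantile normalization and 29 with spike scaling. Spike scaling, which adds a constant, turned 23 of them above 0: GRX480 0.26, WRKY22 0.21, RCA 0.47, FMA 0.38, MUTE 0.49, UGT74F1 0.40, WRKY20 0.28, NAC014 0.37, THI2.1 0.16, RTE1 0.45, GH3.9 0.036, DFR 0.45, PRK 0.13, HPR 0.12, HYH 0.33, NUP155 0.36, Fes1B 0.24, GLR3.3 0.078, GLR3.6 0.086, AT4G13840 0.065, HDA15 0.35, nad2 0.033 and COR27 0.46. EXO turned to 0.26 with quantile normalization, and the cause was not tested. PDF1.2 was at -0.82 without CPR5-C replicate 3 and at 0.87 at the highest with another array left out. The number of arrays, the centring and unnamed probe sets limit what can be shown.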

Other observations

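Families of secretion, wall and membrane genes, grouped after their values were seen, also split. TRICHOME BIREFRINGENCE-LIKE proteins, several of which acetylate cell wall polysaccharides, had 12 of 24 probe sets lower and 4 higher (limma), with a median of -0.18 that was 0.34 with spike scaling, against 7 and 2 with quantile normalization. The lower ones were led by TBL37 (-2.76, SE 0.15), TBL28 (-2.59, SE 0.08) and TBL45 (-1.86, SE 0.14), and TBL38 (1.02, SE 0.13) and TBL18 (0.98, SE 0.08) were higher. With spike scaling 7 were lower and 12 higher. Genes of vacuolar protein sorting had 9 of 14 higher and 4 lower, with a median of 0.26, led by VPS20.1 (1.72, SE 0.09) against VPS2.2 (-0.89, SE 0.12), and with quantile normalization 2 were higher and 0 lower. Serine carboxypeptidase-like genes had 7 of 29 higher and 4 lower, shares near or below the background. They ranged from scpl46 (-1.10, SE 0.07) to SCPL49 (2.50, SE 0.07). Tetraspanins, membrane proteins with 4 spans, had 5 of 15 higher and 3 lower, from TET10 (-1.44, SE 0.08) to TET7 (1.70, SE 0.08).

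Further families were also grouped after their values were seen. Succinate dehydrogenase, complex II of mitochondrial respiration encoded in the nucleus, had 3 of 5 probe sets higher and 0 lower. These were SDH2-1 (1.16, SE 0.08), SDH2-2 (0.63, SE 0.06) and SDH1-1 (0.63, SE 0.07), and 3 were higher with quantile normalization too. Another probe set of SDH2-1 was at 0.13 and not called (adjusted p = 0.347). Calmodulin-binding IQD proteins had 5 of 15 lower and 1 higher, with iqd21 at -1.42 (SE 0.08) and IQD30 at 1.24 (SE 0.11). Among calmodulin-like calcium sensors CML42 (-1.09, SE 0.10), CML23 (-0.87, SE 0.12) and CML30 (-0.28, SE 0.06) were lower. CML38 (0.80, SE 0.17) and CML41 (0.67, SE 0.10) were higher, and CML37, CML43 and AT1G76640 were not called.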
